A study of Mus musculus with 8 samples.

Results

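The genes described here are the abundant long noncoding RNAs (lncRNAs) of the pressure-loaded mouse heart, transcripts that are not translated into an annotated protein. They were chosen by level, as the autosomal genes with the lncRNA biotype whose mean over all 8 libraries was at least 10 CPM (reads of a gene per 1000000 reads counted in genes). The deposited table lists 56748 genes, of which 11288 were lncRNA genes and 10532 of these lay on chromosomes 1 to 19. Of these, 126 met the rule. Because these levels chose the genes, the levels below are a description. The rule did not use the genotype. The genes just inside the threshold were ENSMUSG00000120113 at 10.02, Snhg5 at 10.15 and 4632404H12Rik at 10.19 CPM, and those just outside were 6720427I07Rik at 9.90, Gata6os at 9.86 and 6430562O15Rik at 9.83 CPM.

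Polyadenylated RNA was sequenced from hearts, labelled whole, of mice aged 3 to 4 months, whose strain the labels spell C56BL. In every mouse the transverse aorta had been constricted for 7 days, which raises the pressure against which the left ventricle pumps. The hearts labelled CMS7KO (n = 4) had lost Smad7 in cardiomyocytes through a Cre recombinase driven by the alpha myosin heavy chain promoter. The ACRE hearts (n = 4) carried the same Cre without that loss, so both groups share the Cre and the constriction, and no unloaded heart or Cre-free heart was analysed here. Smad7 is an inhibitor of transforming growth factor beta signalling. In each group samples 1 and 2 are labelled male and samples 3 and 4 female. The labels call the 4 samples of a condition independent.

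LncRNAs act by different routes. Some build structures in the nucleus, as Neat1 does for paraspeckles, or bind chromatin at imprinted loci. Others are known mainly as the precursors of small RNAs: introns or exons of the host transcript are cut into microRNAs (miRNAs), which repress messenger RNAs through their seed, or into small nucleolar RNAs (snoRNAs), which guide the modification of ribosomal RNA. A further group works in the cytoplasm by binding proteins or miRNAs.

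Between 12920435 and 17199600 reads per library were counted in genes, and a member held 33 to 67251 reads in a library. Levels are given below as CPM after TMM scaling (the trimmed mean method of edgeR), and all 126 members passed the filter on low counts. ACRE 2 and ACRE 4 stood apart: the first principal component, 37.5% of the variance, placed the CMS7KO libraries at -48.0 to -11.3, ACRE 1 and ACRE 3 at -15.9 and -17.1, and ACRE 2 and ACRE 4 at 63.6 and 76.4. The second component placed ACRE 1 and ACRE 3 apart, at -48.2 and -47.8. On it the CMS7KO libraries were at 17.7 to 26.9, and ACRE 2 and ACRE 4 at 5.17 and 3.62. Values without ACRE 2 and ACRE 4 compare CMS7KO hearts with ACRE 1 and ACRE 3 alone. Where leaving out ACRE 2 and ACRE 4 clearly moved a member's printed log2 difference or turned its sign, both values are given. Xist and Ddx3y, which are sex-linked, did not match the sex label in 2 libraries, CMS7KO 3 and ACRE 3. Both are labelled female, yet Xist was at 0.569 and 0.314 CPM and Ddx3y at 84.2 and 89.1 CPM, as in libraries labelled male. No fit used a corrected label. Fits without ACRE 2 and ACRE 4 kept no ACRE library with Xist at the level of ACRE 4 (362 CPM). They did keep CMS7KO 4, where Xist was at 837 CPM. All 8 cardiomyocyte markers, such as Myh6 and Tnnt2, were read in every group, with summed levels of 28413 to 48592 CPM in CMS7KO hearts and 41153 to 95593 CPM in ACRE hearts. All 8 had log2 differences below 0, with a median of -0.64 that was -0.17 without ACRE 2 and ACRE 4, and for 5 of them ACRE 2 and ACRE 4 were the highest libraries. None passed the test, and their part in the results below was not tested. In such bulk samples, fewer cells of a type and less RNA per cell cannot be told apart.

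Smad7 itself was at 30.9, 41.9, 38.9 and 43.1 CPM in CMS7KO hearts, against 34.6, 34.5, 32.7 and 23.9 CPM in ACRE hearts. The groups overlapped, and the log2 difference of 0.30 ± 0.18 (SE) did not pass the test (edgeR, adjusted p = 0.415). The count covers the whole gene in all cells of the heart, and the labels do not name the excised part, so it does not check the labels. CMS7KO below means the libraries so labelled.

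Of the 126 members, 12 contain a miRNA gene on their own strand, and 23 miRNA genes lie inside them. The mature miRNAs are shown here because the same seeds recur across different hosts. Capitals mark the seed, bases 2 to 8 from the 5′ end, and the sequences are those of RefSeq on GRCm38.p6. Mature miRNAs were not analysed here. The let-7a sequence was read from the entry of Mirlet7a-1, another gene of the same mature miRNA.
miR-100-5p, in Mir100hg: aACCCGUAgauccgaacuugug
miR-99a-5p, in Mir99ahg: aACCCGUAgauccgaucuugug
miR-125b-5p, in Mir100hg and Mir99ahg: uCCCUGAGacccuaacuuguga
let-7a-5p, in Mir100hg: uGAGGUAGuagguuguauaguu
let-7c-5p, in Mir99ahg: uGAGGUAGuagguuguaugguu
miR-15a-5p, in Dleu2: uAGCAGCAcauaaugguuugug
miR-16-5p, in Dleu2: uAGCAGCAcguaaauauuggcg
miR-29b-3p, in A330023F24Rik: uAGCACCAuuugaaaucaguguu
miR-29c-3p, in A330023F24Rik: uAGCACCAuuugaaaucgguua
miR-22-3p, in Mir22hg: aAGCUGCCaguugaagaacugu
miR-24-3p, in Gm26532: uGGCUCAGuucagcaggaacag
miR-199a-5p, in Dnm3os: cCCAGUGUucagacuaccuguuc
miR-214-3p, in Dnm3os: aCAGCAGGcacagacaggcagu
miR-675-5p, in H19: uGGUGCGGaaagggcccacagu
miR-370-3p, in Rian: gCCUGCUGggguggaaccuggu
Mir100hg and Mir99ahg lie on different chromosomes and carry the same 3 seeds, those of miR-100, miR-125b and let-7. Dleu2 and A330023F24Rik each hold a pair of miRNAs that share a seed.

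The members took 0.812%, 0.807%, 0.811% and 0.904% of the reads in CMS7KO hearts, against 0.991%, 0.596%, 0.820% and 0.657% in ACRE hearts. Exact binomial 95% intervals, which cover counting error only, reached from 0.592% in ACRE 2 to 0.996% in ACRE 1 at their outer bounds. Most of the spread lay in a pair of genes. Neat1, the scaffold of paraspeckles, and Malat1, which resides in nuclear speckles, supplied 43.1% to 53.4% of these reads in CMS7KO hearts and 34.6% to 54.9% in ACRE hearts. Without them the members' share was 0.422% to 0.462% in CMS7KO hearts and 0.390% to 0.447% in ACRE hearts. Of the 126 members 7 had a mean above 100 CPM, 52 lay between 20 and 100 CPM and 67 were below 20 CPM, and 94 are known only by a clone, accession or identifier.

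Per kilobase (kb) of gene length, Malat1 stood highest, at 137 ± 16.5 CPM per kb in CMS7KO hearts and 166 ± 21.2 CPM per kb in ACRE hearts (SD, n = 4 each). ENSMUSG00000120364, an unnamed gene on chromosome 11 at 31495794 to 31499656, followed, with 104 ± 39.5 CPM per kb in CMS7KO hearts and 192 ± 94.2 CPM per kb in ACRE hearts (SD, n = 4 each). Next came Neat1, with 131 ± 31.6 in CMS7KO hearts and 115 ± 57.6 in ACRE hearts, and 5430431A17Rik, with 170 ± 7.61 in CMS7KO hearts and 72.6 ± 10.7 in ACRE hearts (CPM per kb, SD, n = 4 each). The log2 difference of ENSMUSG00000120364 was -0.88 ± 0.42 (SE), and -0.09 without ACRE 2 and ACRE 4. In this order, set by the mean over all 8 libraries, the ranges of neighbours overlapped in both groups, except in CMS7KO hearts, where 5430431A17Rik stood above ENSMUSG00000121092, the fifth gene, and that gene above Gm49130 in every library. ENSMUSG00000121092, Gm49130, Gm29237 and Gm44386 completed the top 8. Little is known of these 4 genes, and each is under 1 kb long in the table. Gm49130 lies opposite Myh6 and Gm29237 opposite Sptbn1, both far more abundant, and their reads cannot be told apart if counting ignored strand. The order depends on the gene length in the table, which is 21163 bases for Neat1 and 6988 bases for Malat1. By CPM alone Neat1 stood above Malat1 on average.

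**Figure D1:**
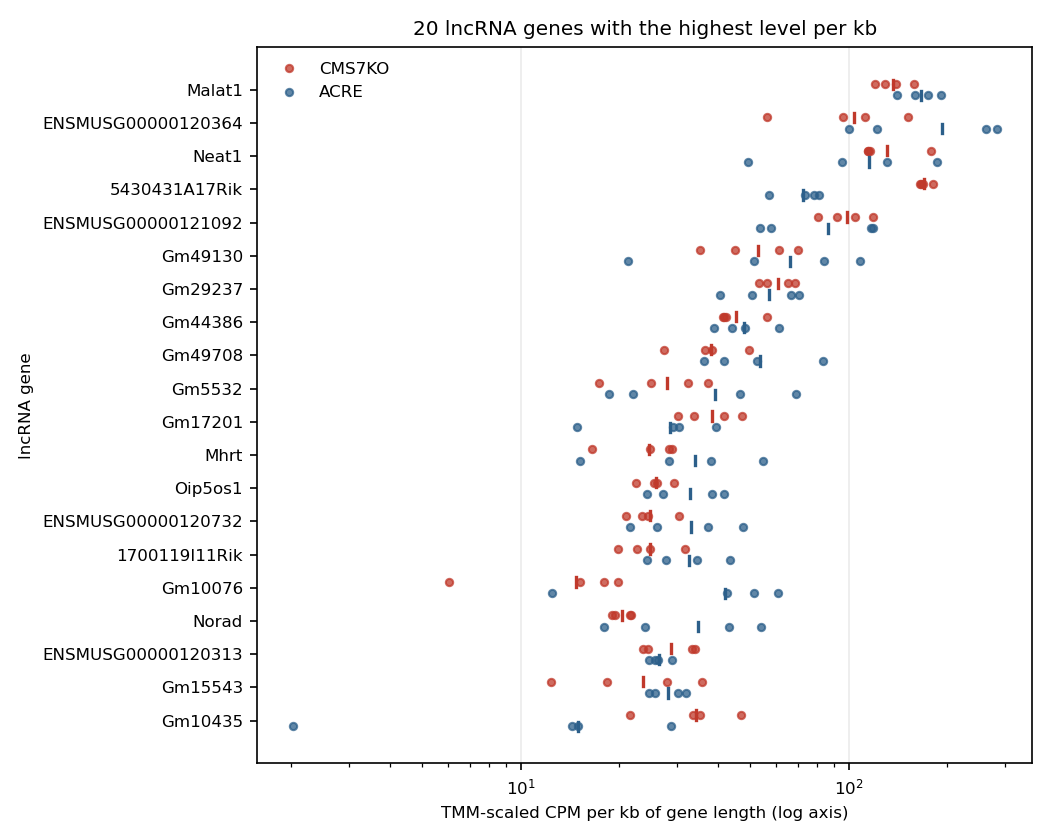
Level per kb of gene length (TMM-scaled CPM per kb, log axis) of the 20 members with the highest means, 1 point per library, CMS7KO (red) above ACRE (blue), with a bar at each group's mean. 5430431A17Rik is the gene among them whose 4 CMS7KO points all lie to the right of its 4 ACRE points with a wide gap, while for Neat1 the ACRE points hold both the highest and the lowest level.

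The study asked how the loaded heart's transcriptome differs when cardiomyocytes lack Smad7. No member passed edgeR's quasi-likelihood test at an adjusted p of 0.05 over the 16780 genes tested, beside 3 genes of any kind higher (0.0179%) and 3 lower (0.0179%), 0.0358% in all. At an unadjusted p under 0.05, 15 members were higher and 14 lower, 23.0% of the members, beside 7.12% and 8.2% of all genes and 15.3% in all. DESeq2 called 2 members higher, 5430431A17Rik and Rian, and 4 lower, 4930429F24Rik, 4930481A15Rik, C130080G10Rik and Gm20544, beside 1.66% of genes higher and 1.23% lower (2.88% in all), and limma voom called none (0.0179% of genes higher, 0.0119% lower and 0.0298% in all). Without a filter on low counts edgeR called 13 members higher and 12 lower, beside 1.4% and 2.8% of 32514 genes (4.21% in all). Without the sex label as covariate it called 5430431A17Rik alone, beside 0.0179% of genes higher and 0.0298% lower (0.0477% in all). Without ACRE 2 and ACRE 4 it called 2 members higher, 5430431A17Rik and Hand2os1, and 2 lower, 4930481A15Rik and ENSMUSG00000120992, beside 0.481% and 0.498% of genes (0.979% in all). The median member had a log2 difference of 0.08, against -0.01 over all genes tested, and 70 of 126 members were above 0 (55.6%), beside 49.4% of all genes. The 1512 other autosomal lncRNAs tested, which were less abundant, had a median of 0.15, with 60.8% above 0. Of these, 10.45% had an unadjusted p under 0.05. All 4 CMS7KO libraries stood above all 4 ACRE libraries for 7 members and below them for 5 members, beside 5.41% and 4.18% of all genes. These 12 members are 9.52% of the list, and 9.59% of all genes were separated in this way. In data simulated at this size, this edgeR test recovered 46% of 100 genes changed 2-fold and 97% of 100 changed 4-fold, among 16780 genes. It also called 10 unchanged genes. The simulation had no shift of ACRE 2 and ACRE 4, and it held many more changed genes than were called here. These shares may therefore be too high for the real data, and a missed threshold does not show that levels were equal.

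**Figure D2:**
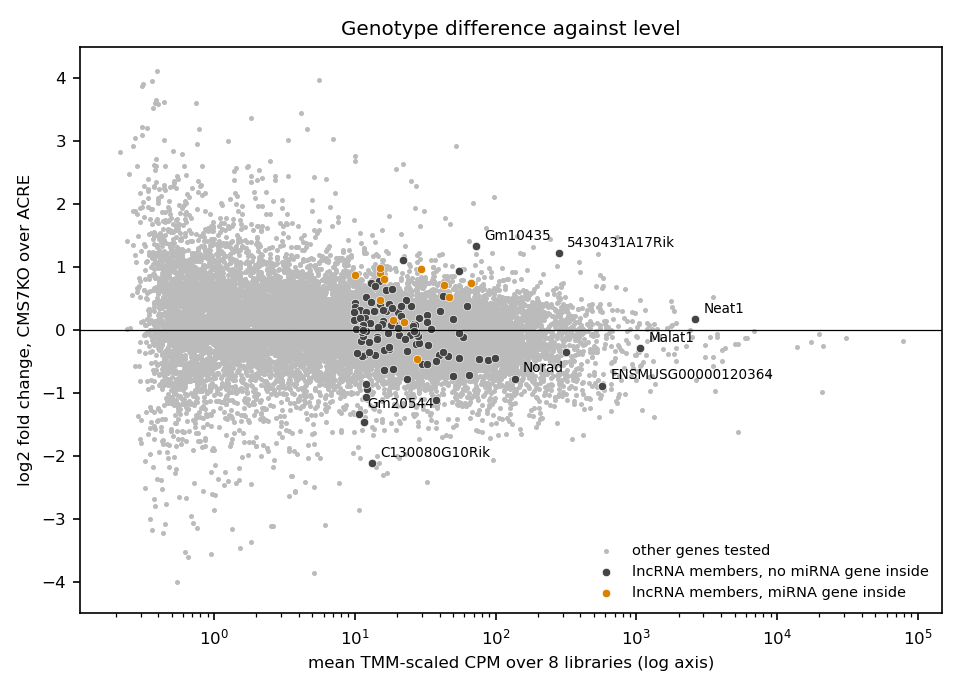
Log2 fold change, CMS7KO over ACRE, against mean TMM-scaled CPM (log axis) for the genes tested (grey), the members (black) and the members with a miRNA gene inside (orange). 10 other genes and 0 members lie beyond the limits of the vertical axis. The members begin near 10 CPM by their definition, and 11 of the 12 orange points lie above 0.

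5430431A17Rik, a gene of unknown role on chromosome 7 at 44122960 to 44135599 (plus strand), had the smallest p of the members. It was at 383, 385, 391 and 421 CPM in CMS7KO hearts, against 188, 171, 183 and 133 CPM in ACRE hearts. The lowest CMS7KO library was more than 2 times the highest ACRE library, and the fold was 2.34 with a 95% interval of 1.75 to 3.13. The log2 difference of 1.23 ± 0.19 (SE) gave an unadjusted p of 7.87e-05 and an adjusted p of 0.106 in edgeR, and an adjusted p of 1e-09 in DESeq2. Without ACRE 2 and ACRE 4 the log2 difference was 1.09 and passed the edgeR test (adjusted p = 0.0143). It overlaps no other gene of the table. Josd2, a deubiquitinase 1874 bases away, was the nearest protein-coding gene with a mean of at least 1 CPM. Josd2 averaged 82.5 ± 9.00 CPM in CMS7KO hearts and 85.2 ± 15.96 CPM in ACRE hearts (SD, n = 4 each).

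The RefSeq promoter of 5430431A17Rik is shown because it belongs to the member with the smallest p. It runs over chr7:44484267-44484566 on the plus strand of GRCm38.p6, 250 bases before to 50 bases after the start, and capitals mark CAGAC, a form of the Smad-binding element.
5430431A17Rik promoter: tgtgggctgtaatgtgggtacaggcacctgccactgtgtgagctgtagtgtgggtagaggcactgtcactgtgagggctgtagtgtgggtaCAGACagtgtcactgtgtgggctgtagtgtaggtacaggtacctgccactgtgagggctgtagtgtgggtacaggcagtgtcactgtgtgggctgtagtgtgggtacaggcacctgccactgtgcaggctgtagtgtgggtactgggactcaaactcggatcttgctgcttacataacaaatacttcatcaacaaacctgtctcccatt
CAGAC, searched on both strands, occurs once, 159 bases before the start, and 49.59% of all 32851 RefSeq promoters hold it. The window holds 1 CpG, against a median of 7 over all promoters and 13 over 79 promoters of the 66 members found in the table. It consists largely of a tandem repeat. Its most frequent word of 13 bases, GCTGTAGTGTGGG, searched on both strands, occurs 5 times in it and in no other promoter of the table. The word was taken from this promoter, so its absence elsewhere is a description and not a test.

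The 4 members called lower by DESeq2 included 3 that start back to back with a coding gene. 4930429F24Rik, of unknown role, lies 92 bases from Tmem30a, a subunit of phospholipid flippases. It was at 17.4, 16.4, 18.8 and 16.1 CPM in CMS7KO hearts, against 30.3, 23.5, 26.9 and 37.8 CPM in ACRE hearts, with a log2 difference of -0.78 ± 0.17 (SE; edgeR, adjusted p = 0.187). Its groups did not overlap. Tmem30a had a log2 difference of -0.32 ± 0.19 (SE), and its groups did overlap.

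Gm20544 starts 440 bases from Smad7 and runs the other way, on chromosome 18 from 75491711 to 75500160 (minus strand). It was at 3.70, 6.23, 4.36 and 10.2 CPM in CMS7KO hearts, against 17.7, 14.1, 15.6 and 13.4 CPM in ACRE hearts. Every CMS7KO library was below every ACRE library, and the log2 difference was -1.34 ± 0.31 (SE), with an adjusted p of 0.199 in edgeR and 0.00663 in DESeq2. Smad7 across the shared start region differed by 0.30 on the log2 scale. No cause was tested.

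C130080G10Rik lies 787 bases from Actc1, which encodes cardiac alpha-actin. It was at 6.96, 3.01, 3.54 and 5.53 CPM in CMS7KO hearts, against 8.60, 20.99, 9.04 and 47.7 CPM in ACRE hearts. The groups did not overlap, but ACRE 2 and ACRE 4 set most of the difference: the log2 value of -2.11 ± 0.56 (SE; edgeR, adjusted p = 0.213) became -0.90 without them (edgeR, adjusted p = 0.300). Actc1 was also highest in those libraries, with 7699, 3935, 6066 and 8855 CPM in CMS7KO hearts and 7631, 14120, 6156 and 15483 CPM in ACRE hearts. 4930481A15Rik lies across Drap1, a transcriptional corepressor, on the opposite strand, and their reads cannot be told apart if counting ignored strand. It had 5.07, 8.77, 9.98 and 7.47 CPM in CMS7KO hearts and 21.003, 9.59, 20.2 and 14.2 CPM in ACRE hearts, where Drap1 differed by -0.01 on the log2 scale. Its groups overlapped through ACRE 2 alone, and without ACRE 2 and ACRE 4 its log2 difference of -1.41 passed the test (edgeR, adjusted p = 0.0288).

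**Figure D3:**
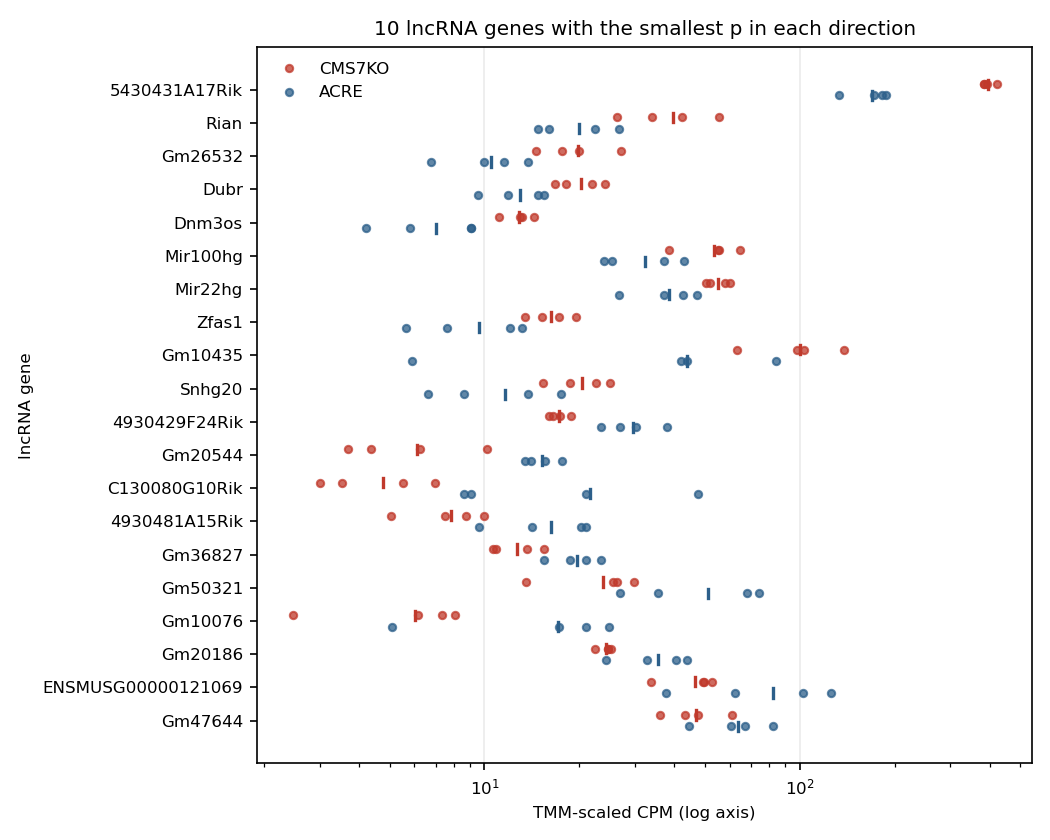
TMM-scaled CPM (log axis) of the 10 members with the smallest unadjusted p in each direction, higher in CMS7KO in the upper rows and lower in the lower rows, with 1 point per library and a bar at each group's mean, CMS7KO (red) above ACRE (blue). None passed the edgeR threshold. 5430431A17Rik at 383 to 421 CPM in CMS7KO hearts and 133 to 188 CPM in ACRE hearts has the widest gap between groups relative to its spread.

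Among the 12 members that contain a miRNA gene, 11 had a higher mean level in CMS7KO hearts (91.7%, beside 49.4% of all genes) and 8 of those had an unadjusted p under 0.05 (66.7%, beside 7.12% of all genes higher and 15.3% in all). Their median log2 difference was 0.74, against 0.08 over all members and -0.01 over all genes, and none passed edgeR after adjustment. ACRE 2 and ACRE 4 were the lowest 2 of the 8 libraries for 9 of the 12, beside 34.9% of all members and 19.5% of all genes. Without those libraries the median was 0.40. ACRE 2 and ACRE 4 were also the lowest 2 libraries for each of the 8 endothelial markers. These markers summed to 2679 to 3423 CPM in CMS7KO hearts and 3622, 1686, 3769 and 2016 CPM in ACRE hearts 1 to 4. Their median log2 difference of 0.15 turned to -0.29 without ACRE 2 and ACRE 4, and 0 had an unadjusted p under 0.05 in edgeR. The part of endothelial cells in the result was not tested.

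Dnm3os, the precursor of miR-199a and miR-214, which are known from heart remodelling, was at 11.1, 14.4, 12.95 and 13.2 CPM in CMS7KO hearts, against 9.07, 4.22, 9.04 and 5.79 CPM in ACRE hearts. The groups did not overlap (log2 difference 0.87 ± 0.27, SE; edgeR, adjusted p = 0.261), and the difference was 0.51 without ACRE 2 and ACRE 4. Dnm3os lies on the opposite strand inside Dnm3, a dynamin, which differed by 0.09 on the log2 scale. Dnm3os is expressed by fibroblasts. All 8 fibroblast markers had log2 differences above 0, none past the adjusted test. Of these markers, 5 had an unadjusted p under 0.05 in edgeR (62.5%, beside 15.3% of all genes). Their median log2 difference of 0.70 was 0.69 without ACRE 2 and ACRE 4. They summed to 3285 to 7124 CPM in CMS7KO hearts and 2375 to 3261 CPM in ACRE hearts. The part of fibroblasts in the result was not tested.

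Gm26532, which spans miR-24, was at 17.6, 27.1, 19.9 and 14.6 CPM in CMS7KO hearts, against 13.7, 6.77, 11.5 and 9.94 CPM in ACRE hearts, also without overlap. Mir22hg, host of miR-22, a miRNA known to be abundant in cardiac muscle, had 50.4, 59.9, 57.8 and 51.9 CPM in CMS7KO hearts and 47.3, 26.6, 42.5 and 37.1 CPM in ACRE hearts, and its groups did not overlap either. The log2 difference of Gm26532 was 0.91 ± 0.26 (SE), and 0.65 without ACRE 2 and ACRE 4. That of Mir22hg was 0.52 ± 0.19 (SE), and 0.29 without them. Mir22hg shares its strand with part of Tlcd2, so some reads may belong to either gene.

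The paired clusters did not give the same values. Mir100hg had 38.3, 64.3, 55.1 and 55.2 CPM in CMS7KO hearts and 37.0, 24.0, 42.8 and 25.4 CPM in ACRE hearts, a log2 difference of 0.72 ± 0.23 (SE) that was 0.42 without ACRE 2 and ACRE 4. Mir99ahg, whose miRNAs carry the same seeds, had 18.5, 27.2, 17.9 and 14.9 CPM in CMS7KO hearts and 23.6, 12.5, 20.04 and 13.2 CPM in ACRE hearts, a difference of 0.16 ± 0.25 (SE) that turned to -0.17 without them. The difference between the hosts was not tested. A330023F24Rik, which holds the miR-29 pair known to repress collagen messages, had a log2 difference of 0.47 ± 0.19 (SE), and 0.43 without ACRE 2 and ACRE 4. Dleu2, which holds miR-15a and miR-16, had 0.13 ± 0.24 (SE), which turned to -0.23 without them. 2900076A07Rik was the host below 0, at -0.45 ± 0.26 (SE), and at -0.04 without them.

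**Figure D4:**
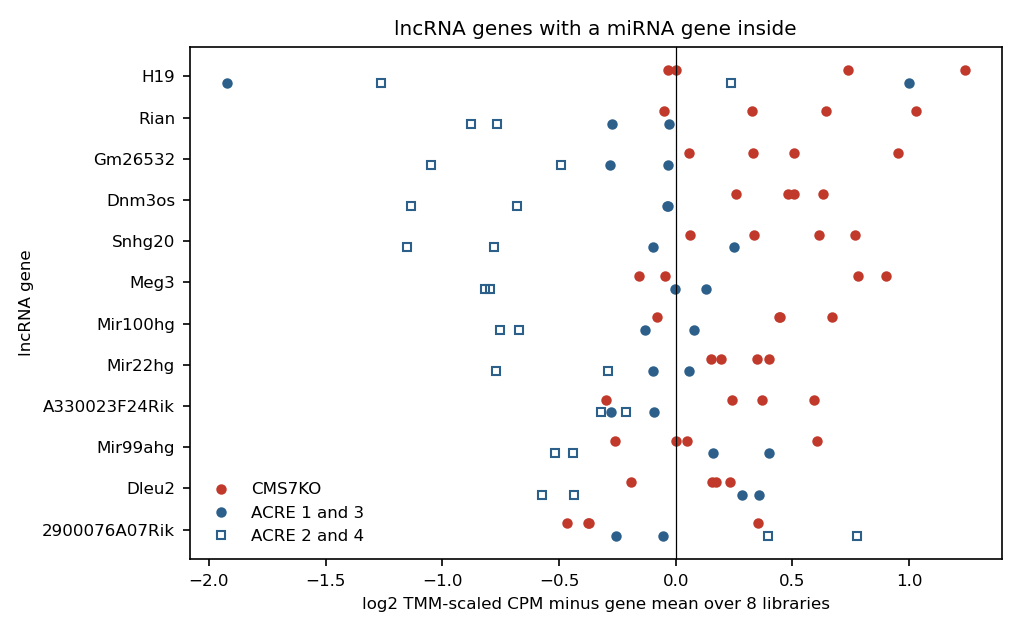
Log2 TMM-scaled CPM minus the gene's mean over 8 libraries for the 12 members with a miRNA gene inside, ordered by log2 fold change, with CMS7KO (red) above ACRE (blue) in each row. Open squares are ACRE 2 and ACRE 4, the lowest 2 libraries in 9 rows. Dnm3os, Gm26532 and Mir22hg are the rows in which all CMS7KO points lie to the right of all ACRE points.

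The snoRNA hosts fixed as a list held 8 members of 22 genes. All 8 had log2 differences above 0 (beside 49.4% of all genes), with a median log2 difference of 0.43 that became 0.09 without ACRE 2 and ACRE 4, and 3 had an unadjusted p under 0.05 (37.5%, beside 15.3% of all genes). ACRE 2 and ACRE 4 were the lowest libraries for 7 of them (beside 19.5% of all genes). By position, 11 members contain a snoRNA gene, 9 of them above 0, with a median of 0.30 that became -0.04 without those libraries. Rian and Snhg20 also contain a miRNA gene and are counted among the miRNA hosts above, so these counts are not independent.

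Zfas1, which hosts 3 snoRNA genes and starts opposite Znfx1, had 17.2, 19.5, 13.4 and 15.2 CPM in CMS7KO hearts and 12.1, 5.63, 13.2 and 7.63 CPM in ACRE hearts. The groups were separated by a narrow gap (log2 difference 0.75 ± 0.28, SE; edgeR, adjusted p = 0.304), and the difference was 0.35 without ACRE 2 and ACRE 4. Snhg20 had a log2 difference of 0.81 ± 0.31 (SE), and 0.39 without them. Gas5, whose spliced RNA is degraded during translation, had 0.55 ± 0.25 (SE), and 0.18 without them. Gas5 was at 47.8, 55.8, 58.1 and 39.1 CPM in CMS7KO hearts, against 46.5, 27.8, 42.0 and 21.4 CPM in ACRE hearts. Snhg1, Snhg5 and Snhg17 had log2 differences of 0.32, 0.28 and 0.30, which turned to -0.01, -0.17 and -0.14 without ACRE 2 and ACRE 4. The 15 core snoRNP proteins tested had a median of -0.07, with 0 at an unadjusted p under 0.05, and 2 of 18 nonsense-mediated decay factors reached it (11.1%, beside 15.3% of all genes).

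Host genes of snoRNAs are known for starts rich in pyrimidines. The first 30 bases of RefSeq transcripts are shown for every start of 6 hosts because they range from short to long runs, and capitals mark the longest run of C or T.
Gas5, first start: gagCTCgacagcccggagccaaaggggcgg
Gas5, second start: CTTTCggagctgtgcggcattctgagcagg
Zfas1: gcggccgcaggTCTCggctggccccggagc
Snhg1: ctcaTTTTTCCTTgttcggggtaagtactc
Snhg5: gggctcgTTCTTTTacgacggagcctaaga
Snhg17, first start: gtgaagaccacagTTTCCTgtcgcgtggat
Snhg17, second start: tttcctgtcgcgtggatgtgTTTCCTCTCT
Snhg20: gaagtgcatttgcagagctggTTCCgccgg
A run of at least 7 pyrimidines in this window was present in 4 of 12 promoters of snoRNA host members, 22.78% of 79 member promoters and 16.3% of all promoters.

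Imprinted lncRNAs are expressed from 1 parental copy. Of 13 on the list 6 were members, 5 of them above 0, with a median log2 difference of 0.59 that was 0.28 without ACRE 2 and ACRE 4. Rian, Meg3 and H19 are also counted among the miRNA hosts, and Rian and Snhg14 among the snoRNA hosts. Rian and Meg3 come from the same imprinted domain of chromosome 12, where they are expressed from the maternal copy. Rian was at 34.1, 55.4, 42.4 and 26.2 CPM in CMS7KO hearts, against 22.5, 15.96, 26.6 and 14.8 CPM in ACRE hearts, with overlap at 1 library of each group (log2 difference 0.97 ± 0.27, SE; adjusted p = 0.223 in edgeR and 0.0446 in DESeq2), and the difference was 0.67 without ACRE 2 and ACRE 4. Meg3 had 59.6, 115, 106 and 55.1 CPM in CMS7KO hearts and 61.3, 34.9, 67.1 and 35.4 CPM in ACRE hearts, a difference of 0.75 ± 0.32 (SE) that was 0.38 without them. In both genes CMS7KO 2 and CMS7KO 3 were the highest libraries, and ACRE 2 and ACRE 4 the lowest.

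H19, which is active in the fetal heart and holds miR-675, ranged widely inside each group, with 12.2, 28.9, 11.9 and 20.4 CPM in CMS7KO hearts and 3.22, 5.10, 24.4 and 14.4 CPM in ACRE hearts. Its log2 difference was 0.98 ± 0.57 (SE), and 0.66 without ACRE 2 and ACRE 4. Airn, the antisense transcript of Igf2r, had a difference of 0.42 ± 0.21 (SE), and 0.17 without them. Snhg14 had 0.08 ± 0.24 (SE), which turned to -0.25 without them, and Peg13 had -0.10 ± 0.13 (SE). Peg13, at 48.8 to 61.8 CPM in CMS7KO hearts and 52.9 to 69.8 CPM in ACRE hearts, was among the steadiest members. Of 30 imprinted coding genes 26 were tested, and 2 were higher (beside 7.12% of all genes) and 5 lower (beside 8.2%) at an unadjusted p under 0.05. The 3 smallest p of this list were those of Asb4, Snrpn and Rtl1. Asb4 had a log2 difference of -1.29 ± 0.37 (SE), Snrpn had -1.29 ± 0.47 (SE), and Rtl1, of the same domain as Rian and Meg3, had 1.79 ± 0.70 (SE) at 1.08 ± 0.55 CPM in CMS7KO hearts and 0.282 ± 0.22 CPM in ACRE hearts (SD, n = 4 each).

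Neat1 was at 2422, 2464, 2423 and 3775 CPM in CMS7KO hearts, against 3935, 1044, 2770 and 2025 CPM in ACRE hearts. ACRE hearts held both the highest and the lowest value, and the fold of 1.13 had a 95% interval of 0.616 to 2.06. The log2 difference of 0.17 turned to -0.29 without ACRE 2 and ACRE 4. Of 22 paraspeckle proteins 1 reached an unadjusted p under 0.05 (4.55%, beside 15.3% of all genes). Malat1 was steadier, with 904, 838, 975 and 1107 CPM in CMS7KO hearts and 1116, 1332, 983 and 1217 CPM in ACRE hearts. Its fold of 0.821 had an interval of 0.591 to 1.14, and its log2 difference of -0.29 was -0.15 without ACRE 2 and ACRE 4. For 13 of 20 nuclear retention and speckle proteins, as for Neat1, ACRE 2 and ACRE 4 were the lowest libraries (65%, beside 19.5% of all genes), whereas they were the highest for Malat1.

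Norad, a cytoplasmic RNA that is known to bind Pum2, a regulator of messenger RNA stability, had 107, 93.9, 95.7 and 107 CPM in CMS7KO hearts and 119, 214, 88.7 and 267 CPM in ACRE hearts. The 4 CMS7KO hearts lay close together and ACRE 2 and ACRE 4 stood above all others, so that the log2 difference of -0.77 ± 0.32 (SE; edgeR, adjusted p = 0.316) became -0.03 without them. The recognition motif of Pum2, TGTANATA, searched on the transcript strand, occurs 11 times in the 4915 bases of the GENCODE release 21 transcript of Norad. Of 8905 transcripts of 4000 to 6000 bases 41.0% held it and 3 held at least as many copies (0.0337%). Pum2 was also highest in ACRE 2 and ACRE 4, and averaged 104 ± 4.55 CPM in CMS7KO hearts and 142 ± 33.3 CPM in ACRE hearts (SD, n = 4 each).

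Oip5os1, known as Cyrano, carries a site of extensive pairing to miR-7 through which it is known to direct the decay of that miRNA. The site and the miRNA are shown because they pair over nearly their whole length. Capitals mark the paired bases of the site, bases 2935 to 2959 of an 8300-base transcript from chromosome 2, and the seed of the miRNA.
Oip5os1 site: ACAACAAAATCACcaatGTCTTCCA
miR-7a-5p: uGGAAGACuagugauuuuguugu
The site pairs with 13 bases at the 3′ end and 8 at the 5′ end of miR-7a, leaving 4 of its own bases unpaired. Oip5os1 was at 314, 274, 280 and 242 CPM in CMS7KO hearts, against 291, 447, 260 and 410 CPM in ACRE hearts. As for Norad, ACRE 2 and ACRE 4 were highest, and the log2 difference of -0.34 ± 0.22 (SE) was 0.01 without them.

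Of 18 heart and muscle lncRNAs on the list 4 were members. Mhrt lies antisense to Myh7 and is known in mice to protect the loaded heart. It was at 97.9, 55.8, 83.7 and 95.6 CPM in CMS7KO hearts, against 184, 95.7, 128 and 51.4 CPM in ACRE hearts, with a log2 difference of -0.44 ± 0.36 (SE). ACRE 4 was the lowest of all libraries, and without ACRE 2 and ACRE 4 the difference was -0.91 (edgeR, adjusted p = 0.147). Myh7, the beta myosin heavy chain, had a difference of -0.26 ± 0.32 (SE), and the 2 genes cannot be told apart if counting ignored strand.

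Hand2os1 lies upstream of and across Hand2, a cardiac transcription factor, on the opposite strand. It was at 88.3, 71.3, 79.8 and 90.0 CPM in CMS7KO hearts, against 29.6, 39.4, 33.2 and 106 CPM in ACRE hearts. One ACRE library, ACRE 4, lay above all others, and the log2 difference of 0.75 ± 0.35 (SE; edgeR, adjusted p = 0.334) became 1.39 without ACRE 2 and ACRE 4 (edgeR, adjusted p = 0.00280). Hand2 averaged 30.6 ± 4.68 CPM in CMS7KO hearts and 29.3 ± 6.84 CPM in ACRE hearts (SD, n = 4 each). Dubr, which is known from muscle differentiation, had 16.7 to 24.1 CPM in CMS7KO hearts and 9.56 to 15.4 CPM in ACRE hearts without overlap, a log2 difference of 0.63 ± 0.19 (SE) that was 0.40 without ACRE 2 and ACRE 4. Bvht, known from cardiac lineage commitment in mouse embryonic stem cells, had 20.8 to 28.6 CPM in CMS7KO hearts and 9.17 to 30.1 CPM in ACRE hearts, a difference of 0.38 that turned to -0.19 without them.

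Other patterns concern clone-named members, chosen in part after their values were seen. Gm10435, on chromosome 11 and opposite a coding gene from whose reads its own may not be told apart, was at 97.8, 63.2, 103 and 138 CPM in CMS7KO hearts, against 5.91, 41.9, 43.8 and 84.0 CPM in ACRE hearts. 2610507I01Rik, on the same chromosome and 49 bases from Mrpl55, had 26.6, 28.7, 34.6 and 27.3 CPM in CMS7KO hearts and 2.93, 13.8, 16.5 and 26.6 CPM in ACRE hearts. Their log2 differences of 1.33 ± 0.51 and 1.12 ± 0.44 (SE) were 2.39 and 1.83 without ACRE 2 and ACRE 4. Both were lowest in ACRE 1, although Mrpl55, a mitochondrial ribosomal protein gene, had 50.4 CPM there and 49.1 to 58.6 CPM in the other ACRE hearts. Gm10076 was also lowest among ACRE hearts in ACRE 1, at 5.09 CPM. Trim11, a ubiquitin ligase gene near Gm10435 that was chosen after its values were seen, had 60.9, 66.4, 59.9 and 63.2 CPM in CMS7KO hearts and 42.2, 39.8, 47.6 and 38.1 CPM in ACRE hearts (log2 difference 0.58 ± 0.14, SE; edgeR, adjusted p = 0.199). Gm42047 ran from 27.4 to 127 CPM in CMS7KO hearts and from 12.0 to 56.7 CPM in ACRE hearts. Gm16536 was the steadiest member, at 9.34 to 12.0 CPM in CMS7KO hearts and 9.79 to 11.2 CPM in ACRE hearts.

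By the coordinates of the table, whose build is not named, 70 members overlapped no protein-coding gene. Of the others, 47 lay on the opposite strand of one, 6 on the same strand and 3 on both. Whether the counting used strand is not stated in the labels or the table, so reads of these members and of their partners may not be told apart. The 40 members that overlap no other gene had 0 calls and a median log2 difference of -0.10. Of all members, 29 start within 2000 bases of a divergent coding gene with a mean of at least 1 CPM. Each member was set beside the most abundant coding gene it overlaps, if tested, or else the nearest one of at least 1 CPM. Other autosomal lncRNAs were paired by distance alone with coding genes of at least 1 CPM, so the rules differ. The sign of the difference was the same in 70 of 126 member pairs (55.56%), beside 849 of 1512 pairs of other autosomal lncRNAs (56.15%). Pearson's r of the log2 differences was 0.25 over members and 0.25 over the other lncRNAs, over pairs measured in the same 8 libraries.

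Across libraries the highest level was a median of 2.36 times the lowest. It was under 2 times for 39 members and over 5 times for 10. The coefficient of variation was 18.6% in CMS7KO hearts and 31.2% in ACRE hearts for the median member, and for the median of all genes 17.8% in CMS7KO hearts and 28.2% in ACRE hearts. It was higher in ACRE hearts for 100 members (79.4%), beside 70.2% of all genes. ACRE 2 and ACRE 4 were both below the other 6 libraries for 44 members (34.9%), beside 19.5% of all genes, and both above for 18 members (14.3%), beside 22.5% of all genes. No member passed the test for a genotype difference that depends on the sex label (0.0% of all genes passed). H19 alone reached an unadjusted p under 0.05 (edgeR, 0.00557), beside 1.06% of all genes. Because the labels of CMS7KO 3 and ACRE 3 did not match their sex-linked transcripts, this test cannot decide a dependence on sex.

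**Figure D5:**
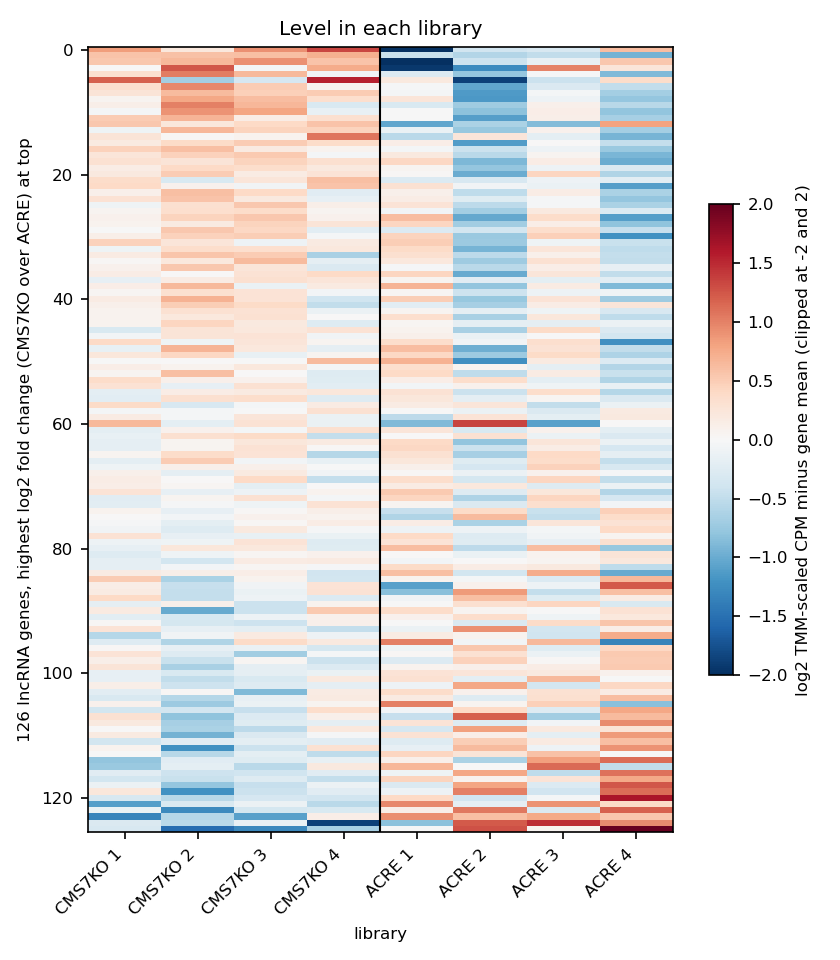
Log2 TMM-scaled CPM of each of the 126 members minus its mean over 8 libraries (colour, clipped at -2 and 2), with members in rows by log2 fold change and libraries in columns, CMS7KO to the left of the line and ACRE to the right. ACRE 2 and ACRE 4 are blue in many of the upper rows and red in many of the lower rows, while the darkest cells of the top rows, in ACRE 1, are Gm10435, 2610507I01Rik and H19.

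No marker of any cell type passed the adjusted test, and the following counts are of unadjusted p values, beside 15.3% of all genes. Of 8 macrophage markers 7 had log2 differences above 0 and 6 an unadjusted p under 0.05, with sums of 621 to 737 CPM in CMS7KO hearts and 298 to 530 CPM in ACRE hearts. Of 6 erythroid markers 4 reached it, with sums of 766 to 1325 CPM in CMS7KO hearts and 359 to 782 CPM in ACRE hearts. Smooth muscle and pericyte sums were 2908 to 3622 CPM in CMS7KO hearts and 2832 to 4549 CPM in ACRE hearts. The lymphocyte, Schwann and neuronal, and mesothelial lists each summed to at most 19.3 CPM in any library. All 4 adipocyte markers tested had log2 differences above 0, and 2 had an unadjusted p under 0.05. The adipocyte sum was 49.8 CPM in CMS7KO 4 and 8.21 CPM in ACRE 4, against 0.268 to 2.02 CPM in the other libraries. The part of these cells in the lncRNA values was not tested.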

How the data were processed

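The only file is a gene table in which the authors deposited raw read counts, whole numbers that had not been scaled, for the 8 hearts, beside each gene's symbol, biotype, position and length. CASAVA, TopHat2 (2.0), Cufflinks (2.1.1) and HTSeq (0.6.1), as well as mm10 and GRCm38.p6, appear in the submitters' processing notes with no role attached. Starts of 2.85% of 52073 gene identifiers matched GENCODE release 21 on GRCm38, so the build of the table is not named and its positions are given unconverted. The strand setting is unknown, which can mix overlapping genes. Depth was 12920435 to 17199600 counted reads per library, and every member had 33 or more reads in each.

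The comparison used edgeR 4.0.16 in R 4.3.3 (filterByExpr on genotype and sex label, TMM, robust quasi-likelihood F test, sex label as covariate, Benjamini-Hochberg adjustment over 16780 genes, threshold 0.05). DESeq2 1.42.0, limma 3.58.1, other scalings, filters and left-out libraries were alternatives. P values weigh the genotype difference against the spread between these hearts. The procedure was tested on simulated data. Every pair of libraries of a group differed beyond sampling noise, with a chi-square per degree of freedom of at least 17.5.

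Members, lists and the libraries to leave out were chosen with earlier results of these data known. Named members were those past the threshold, the 8 highest per kb, the 10 smallest p per direction, those in class lists and those at the threshold of 10 CPM. Gm42047, Gm16536, 2610507I01Rik and ENSMUSG00000120992, as well as hosts found by position and outside the class lists, were named after their values were seen. Of 126 identifiers 108 were in GENCODE release 21 and 66 genes had a RefSeq promoter. Sequences come from RefSeq on GRCm38.p6 and from GENCODE.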

Additional observations from a re-analysis of the deposited data

Results flagged for a closer look

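Of 98 groups of 4 libraries, from the named members, 3 held 1 library far from the other 3 by Dixon's criterion, which chance alone gives in about 1 in 20 groups. Hand2os1 was at 106.1 CPM in ACRE 4 and at 29.6 to 39.4 CPM in the other ACRE hearts. Gm44386 was at 29.9 CPM in CMS7KO 1 and at 22.0 to 22.5 CPM in the other CMS7KO hearts. Neat1 was at 3775 CPM in CMS7KO 4 and at 2422 to 2464 CPM in the other CMS7KO hearts.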

How the results depend on the processing

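Members called higher and lower numbered 0 and 0 with edgeR, 2 and 4 with DESeq2, 13 and 12 with no filter on low counts (1.4% and 2.8% of 32514 genes), 1 and 0 with no sex covariate, and 2 and 2 without ACRE 2 and ACRE 4 (0.481% and 0.498% of genes). The last were 5430431A17Rik and Hand2os1 higher and 4930481A15Rik and ENSMUSG00000120992 lower, and the cause was not tested. They were 0 and 0 with voom, with both other scalings, without each library in turn, and without CMS7KO 3 and ACRE 3, whose sex labels did not match. Over all genes 3 and 3 were called with edgeR, 278 and 206 with DESeq2, 456 and 912 with no filter, 3 and 5 with no sex covariate, 86 and 89 without ACRE 2 and ACRE 4, 0 and 1 without CMS7KO 3 and ACRE 3, and 0 to 10 and 0 to 7 without each library. With the replicate number as a block, 1 and 2 genes and 0 members were called, and the median member difference was 0.092. Same-numbered libraries had correlations of -0.173, -0.187, 0.124 and 0.205, and not every library correlated best with its own number. Because ACRE 2 and ACRE 4 stood apart over many genes, these values cannot show or exclude that the numbers pair the libraries. The median member difference of 0.0772 was -0.0549 without ACRE 2 and ACRE 4, -0.1032 over the 40 members that overlap no gene, and 0.005 to 0.1508 without each library. Members numbered 262 at 5 CPM, 59 at 20 CPM and 119 to 131 without each library. Of 833 values for 49 named members, 33 passed the threshold under another setting, 8 moved and 31 differed in sign from the main value, none of them called. At 12920435 to 17199600 reads, the lowest count of a member in a library was 33 reads, of Gm10076 in CMS7KO 4.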
